A study of Mus musculus with 6 samples.

Results

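The 6 genes described here, Pmp22, Prx, Pmp2, Ncmap, Cdh19 and Fbln7, were taken by name as Schwann cell genes. They were meant as a measure of the nerve roots attached to a dissected cord, and whether each follows root content was not tested. They were 6 of the 54532 genes with a value in RNA-seq libraries made from the cervical cord of C57BL/6 mice. All mice had the nape shaved and cream put on it daily for 2 days. In 3 mice this was 50 mg of a 5% imiquimod cream, which induces a psoriasis-like dermatitis, and in 3 mice an equal amount of vehicle cream. Each library came from 1 mouse. The sources used here give neither age nor sex, nor how much root was left on each cord. Levels are FPKM, fragments per kilobase of exon. Their scaling between libraries followed median-of-ratios size factors, which compare libraries gene by gene, and not the fragment totals. Fragments per library, recovered from FPKM and exon length, ran from 18174411 to 23200996.

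Schwann cells make the myelin of peripheral nerves and of the spinal roots, while oligodendrocytes make that of the cord itself. The border lies where a root enters or leaves the cord, so Schwann cell transcripts in cord tissue can come from root stumps left by the dissection. Myelinating Schwann cells wrap 1 axon segment each and build compact myelin, around which runs a rim of noncompact membrane. The transcription factors Sox10 and Egr2 (Krox20) switch on many of their myelin genes. Fibroblasts sheathe the nerve bundles and also make up much of the meninges that cover the cord.

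The members cover several of these structures. Pmp22 encodes peripheral myelin protein 22, a membrane protein of compact myelin whose gene dosage underlies common inherited neuropathies, and which many cells outside the nervous system also transcribe. Pmp2 encodes a fatty acid binding protein of compact peripheral myelin. Ncmap encodes a membrane protein of noncompact myelin. Prx encodes periaxin, which ties the outer Schwann cell membrane through Drp2 to dystroglycan and the basal lamina. Cdh19 encodes a type II cadherin known from the Schwann cell lineage, and Fbln7 a secreted matrix protein of the fibulin family.

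Promoters of these genes are shown because Egr2 is a known activator of peripheral myelin genes, so they were searched for the core motif of its family. RefSeq windows (GRCm38.p6) of 250 bases before a transcript start were matched for 4 of the 6 members, as 8 windows in all. They were searched on both strands for the EGR core GCGTGGG, found in 4.30% of 32851 such windows, and for the SOX cores ACAAAG or ACAATG, found in 25.2%. The EGR core occurred once in the Prx window (chr7:27499074-27499323, plus strand, where it reads CCCACGC because it lies on the other strand). It also occurred once in 1 of the 2 Ncmap windows (chr4:135385673-135385922, minus strand), at a start inside the gene. The Ncmap window before the most upstream start (chr4:135398228-135398477) did not hold it and is not shown. No Pmp22 window held it, of which the most upstream (chr11:63128732-63128981, plus strand) is shown. The Fbln7 window (chr2:128863682-128863931, plus strand) did not hold it either, and no member window held a SOX core. Each window shown is written 5′ to 3′ with the EGR core in capitals, and a match is a description of letters only.
Prx: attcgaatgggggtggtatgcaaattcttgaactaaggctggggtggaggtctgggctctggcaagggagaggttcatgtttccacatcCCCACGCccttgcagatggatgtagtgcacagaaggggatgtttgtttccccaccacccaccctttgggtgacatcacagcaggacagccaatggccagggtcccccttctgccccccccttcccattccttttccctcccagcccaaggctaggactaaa
Ncmap: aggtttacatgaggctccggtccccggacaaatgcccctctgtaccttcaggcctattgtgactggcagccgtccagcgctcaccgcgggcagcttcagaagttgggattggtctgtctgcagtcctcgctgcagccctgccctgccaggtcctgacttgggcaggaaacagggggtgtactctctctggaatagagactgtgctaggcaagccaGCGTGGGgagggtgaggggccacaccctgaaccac
Pmp22: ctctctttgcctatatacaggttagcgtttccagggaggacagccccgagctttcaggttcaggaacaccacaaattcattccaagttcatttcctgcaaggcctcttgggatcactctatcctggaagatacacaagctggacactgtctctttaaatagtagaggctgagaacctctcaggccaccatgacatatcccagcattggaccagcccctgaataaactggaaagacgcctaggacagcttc
Fbln7: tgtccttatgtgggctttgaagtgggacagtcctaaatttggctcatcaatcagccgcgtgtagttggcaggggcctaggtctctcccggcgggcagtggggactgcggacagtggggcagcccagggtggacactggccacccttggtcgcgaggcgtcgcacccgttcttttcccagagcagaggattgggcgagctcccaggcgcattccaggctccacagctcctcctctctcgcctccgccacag

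Pmp22 has alternative promoters, of which the most upstream is used mainly by myelinating Schwann cells. The FPKM are per gene and cannot separate these transcripts.

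Imiquimod replicate 2 stood apart for some of these genes, though not for Cdh19 and Fbln7, and is set out before the comparisons. In imiquimod replicate 2, Prx was at 0.289 FPKM (36 fragments), against 4.26 to 9.45 FPKM in the other 5 libraries. Among 12723 genes with at least 1 FPKM in each other library, the value of Prx there was the fifth lowest relative to the lowest of the others (6.78%). In that library 8 genes were under 10% by this measure, against 1 to 4 genes in each other library. Crabp2, Prg4, Mfap5 and Ogn were among them (ranks 4, 6, 7 and 8 from the lowest), and these 4 were named after their values were seen. The genes still lower than Crabp2 are not named. The library's depth, 23073142 fragments, was within the range of the other imiquimod libraries, and the results on the members are given with and without it.

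Of the 6 members, 5 passed the filter, which asked for a group mean of 0.5 FPKM or more in at least 1 group, and Pmp2 did not. With limma on log2(FPKM + 0.1) and a Benjamini-Hochberg adjusted p under 0.05 over 16513 genes, 1 member, Fbln7, fell in imiquimod cords and none rose. Over all genes tested, 5.34% were called lower, 8.74% higher and 14.1% either way. At an unadjusted p under 0.05, 2 members were lower (Pmp22 and Fbln7) and 0 higher, against 13.9% and 16.3% of all genes tested. Limma-voom on recovered fragments called 1 member lower and 0 higher, against 6.56% and 9.11% of genes. The median log2 change of the 5 was -0.78 with all libraries and -0.27 without imiquimod replicate 2, while that of all genes tested was -0.01 with all libraries. The libraries of the groups did not overlap for 3 members, Pmp22, Cdh19 and Fbln7, all lower in imiquimod cords, as for 18.0% of all genes tested in that direction, 19.8% in the other and 37.9% in either. Without that library Fbln7 was again the 1 member called lower, with 7.79% of genes called lower, 10.2% higher and 18.0% either way. Bulk libraries cannot tell fewer Schwann cells in the tissue from less RNA per cell, nor either of these from a change in RNA of other cells.

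**Figure D1:**
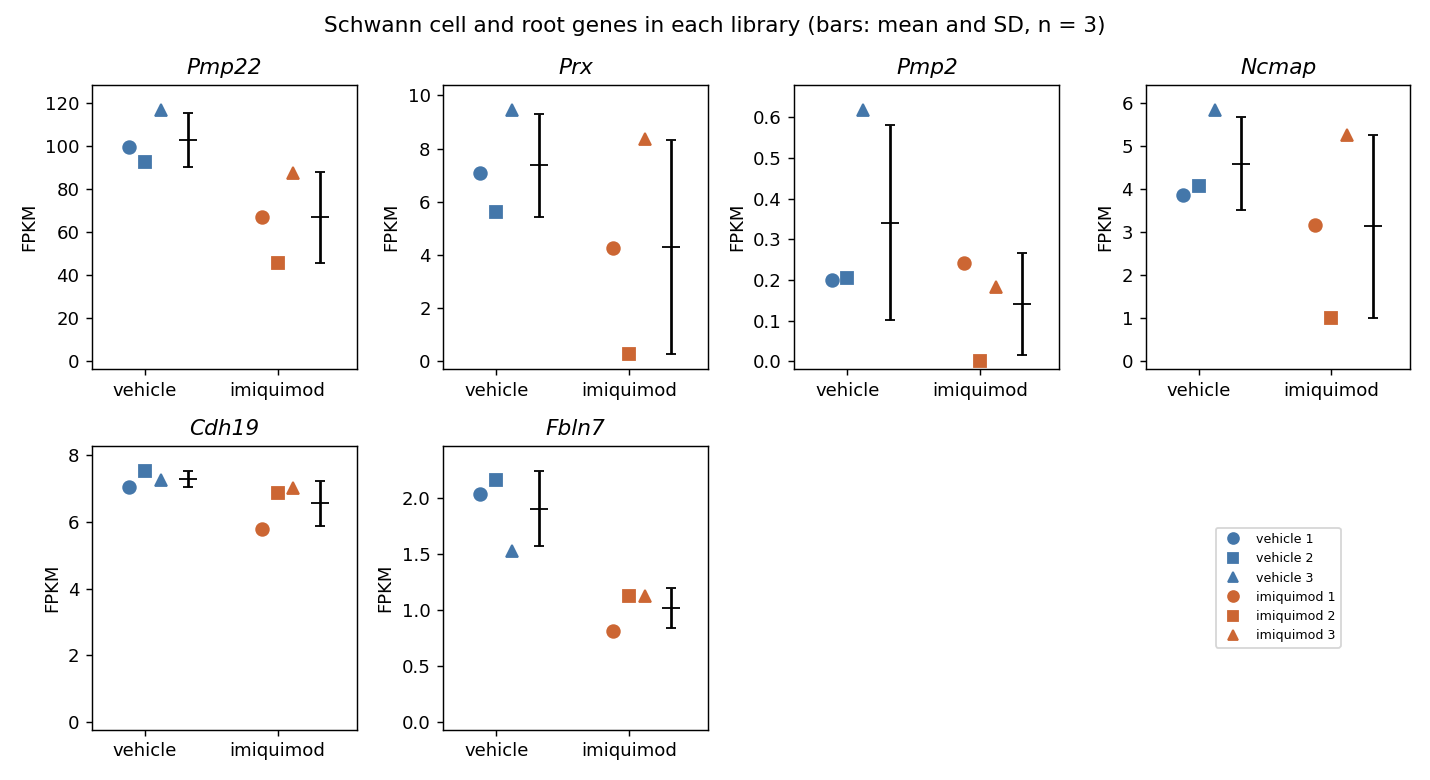
FPKM (vertical axes, linear, a separate scale for each gene) of the 6 members in each of the 3 vehicle and 3 imiquimod libraries; symbols mark the replicate number, and the black bars beside them the group mean and SD. Imiquimod replicate 2 (orange square) is lowest for Pmp22, Prx, Pmp2 and Ncmap, whereas imiquimod replicate 1 is lowest for Cdh19 and Fbln7.

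Compact myelin is represented by Pmp22 (ENSMUSG00000018217, chr11:63128982-63159547 of mm10, plus strand) and Pmp2 (ENSMUSG00000052468, chr3:10179851-10183929, minus strand). Pmp22 was by far the most abundant member, at 99.2, 92.5 and 117 FPKM in vehicle replicates 1 to 3 and at 67.1, 45.6 and 87.6 FPKM in imiquimod replicates 1 to 3. Every imiquimod library lay below every vehicle library, with imiquimod replicate 2 lowest and imiquimod replicate 3 close under the vehicle range. Group means were 103 ± 12.4 and 66.7 ± 21 FPKM (SD, n = 3 each), and the log2 change was -0.66 ± 0.23 (SE), which did not pass (limma adjusted p = 0.0986). Without imiquimod replicate 2 it was -0.41 ± 0.15 (limma adjusted p = 0.109). The change passed without imiquimod replicate 3, at -0.89 (limma adjusted p = 0.0441).

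Pmp2 was close to the limit of detection. It had 5, 5 and 17 fragments in the vehicle libraries (0.201, 0.204 and 0.617 FPKM) and 7, 0 and 6 in the imiquimod libraries (0.241, 0 and 0.182 FPKM). The groups overlapped, vehicle replicate 3 stood above all others, and imiquimod replicate 2 alone had no fragment, which allows up to 3 fragments or 0.0953 FPKM. Its 13 imiquimod and 27 vehicle fragments gave a depth-scaled ratio of 0.396 (exact 95% interval 0.188 to 0.794), and of 0.597 (0.283 to 1.20) without imiquimod replicate 2, both covering counting error only. In the fit with no filter, Pmp2 changed by -0.92 ± 0.58 on the log2 scale (limma adjusted p = 0.485). Its exons share 1224 of their 1408 bases with Gm37389 on the same strand. How fragments on shared bases were counted was not examined, so its few fragments, its level and the limit of 0.0953 FPKM are uncertain.

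Noncompact myelin is represented by Ncmap (ENSMUSG00000043924, chr4:135369576-135398227, minus strand). It was at 3.86, 4.08 and 5.83 FPKM in vehicle replicates 1 to 3 and at 3.16, 1.004 and 5.24 FPKM in imiquimod replicates 1 to 3. The groups overlapped, since imiquimod replicate 3 was higher than 2 vehicle libraries, while imiquimod replicate 2 was at 21.9% of the vehicle mean. The log2 change was -0.78 ± 0.53 and did not pass (limma adjusted p = 0.365). Without imiquimod replicate 2 it was -0.14 ± 0.26 (limma adjusted p = 0.732).

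Prx (ENSMUSG00000053198, chr7:27499324-27520214, plus strand) had the widest spread of the tested members. It was at 7.08, 5.61 and 9.45 FPKM in vehicle replicates 1 to 3 and at 4.26, 0.289 and 8.36 FPKM in imiquimod replicates 1 to 3. Imiquimod replicate 2 had 36 fragments, or 3.91% of the vehicle mean, and imiquimod replicate 3 stood inside the vehicle range. The log2 change was -1.59 ± 1.04 and did not pass (limma adjusted p = 0.347). Without imiquimod replicate 2 it was -0.27 ± 0.33 (limma adjusted p = 0.602). Prx exons share 300 bases with Gm15541 on the opposite strand, and the strand setting of the counting is not given in the sources used here.

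Cdh19 (ENSMUSG00000047216, chr1:110888326-110977584, minus strand) varied least. It was at 7.04, 7.53 and 7.26 FPKM in vehicle replicates 1 to 3 and at 5.78, 6.85 and 7.01 FPKM in imiquimod replicates 1 to 3. Imiquimod replicate 1 was lowest, and imiquimod replicate 2, the library with almost no Prx, was at 94.2% of the vehicle mean. The groups did not overlap, by a margin of 7.04 against 7.01 FPKM. The log2 change was -0.15 ± 0.09 and did not pass (limma adjusted p = 0.295), and without imiquimod replicate 2 it was -0.19 ± 0.10 (limma adjusted p = 0.244).

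Fbln7 (ENSMUSG00000027386, chr2:128862981-128897034, plus strand) was the member that fell. It was at 2.03, 2.16 and 1.52 FPKM in vehicle replicates 1 to 3 and at 0.811, 1.12 and 1.12 FPKM in imiquimod replicates 1 to 3. The groups did not overlap, imiquimod replicate 1 was lowest, and imiquimod replicates 2 and 3 were equal at 59.0% of the vehicle mean. Group means were 1.90 ± 0.336 and 1.02 ± 0.179 FPKM (SD, n = 3 each), on 96 to 121 fragments per vehicle and 54 to 85 per imiquimod library. The log2 change was -0.84 ± 0.19 (limma adjusted p = 0.0320), and -0.91 ± 0.22 without imiquimod replicate 2 (limma adjusted p = 0.0377). The call was lost when replicate 1 or 2 of the vehicle libraries was left out, at log2 changes of -0.79 and -0.75 (limma adjusted p = 0.121 and 0.112), and when replicate 1 or 3 of the imiquimod libraries was, at -0.70 and -0.91 (0.0686 and 0.0614). It was also lost with no filter on low values (limma adjusted p = 0.0680) and with TPM scaling (0.0517).

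**Figure D2:**
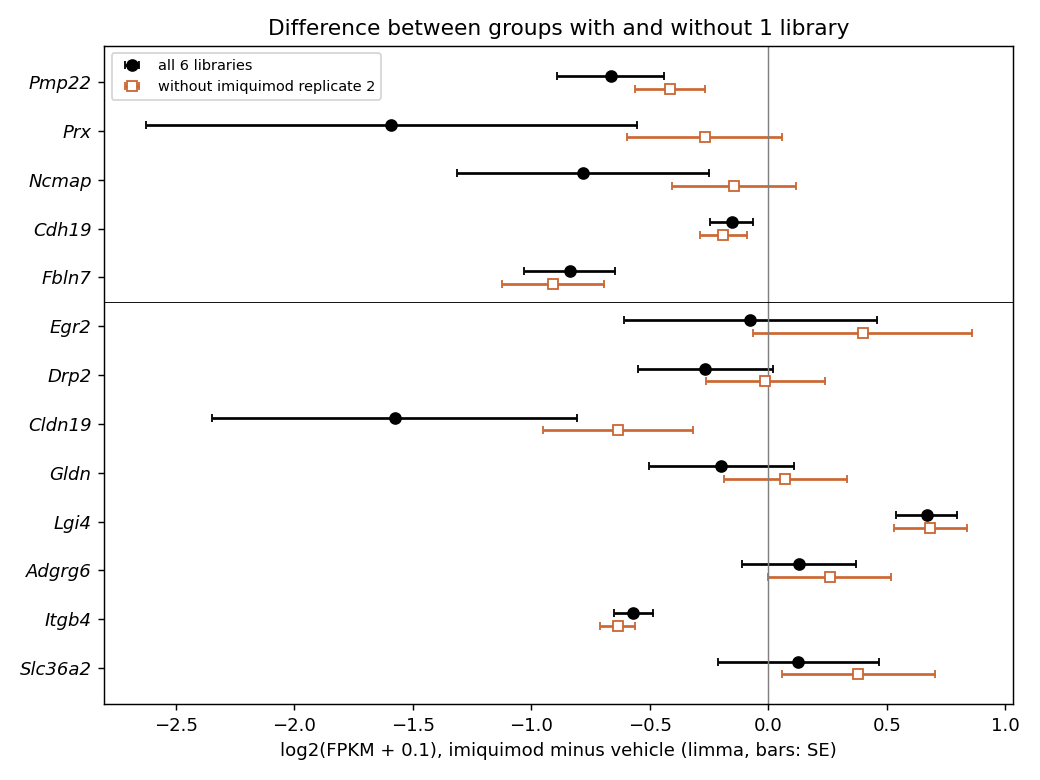
Log2 difference between imiquimod and vehicle cords on log2(FPKM + 0.1) with its SE (horizontal axis), from limma, for the 5 members tested (above the line) and 8 other genes of myelinating Schwann cells (below it); filled circles use all 6 libraries and open squares leave out imiquimod replicate 2. Leaving it out moves Prx from -1.59 to -0.27 and Cldn19 from -1.58 to -0.63, whereas Fbln7 and Cdh19 move by less than their SE.

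The 6 genes did not share 1 order across these libraries. In imiquimod replicate 2 the tested members spread over a wide range, with Prx at 3.91% of its vehicle mean, Ncmap at 21.9%, Pmp22 at 44.3%, Fbln7 at 59.0% and Cdh19 at 94.2%. Prx, Ncmap and Pmp22 had their vehicle maximum in replicate 3, their imiquimod maximum in replicate 3 and their lowest value in imiquimod replicate 2. Cdh19 and Fbln7 had neither their vehicle maximum in replicate 3 nor their lowest value in imiquimod replicate 2.

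**Figure D3:**
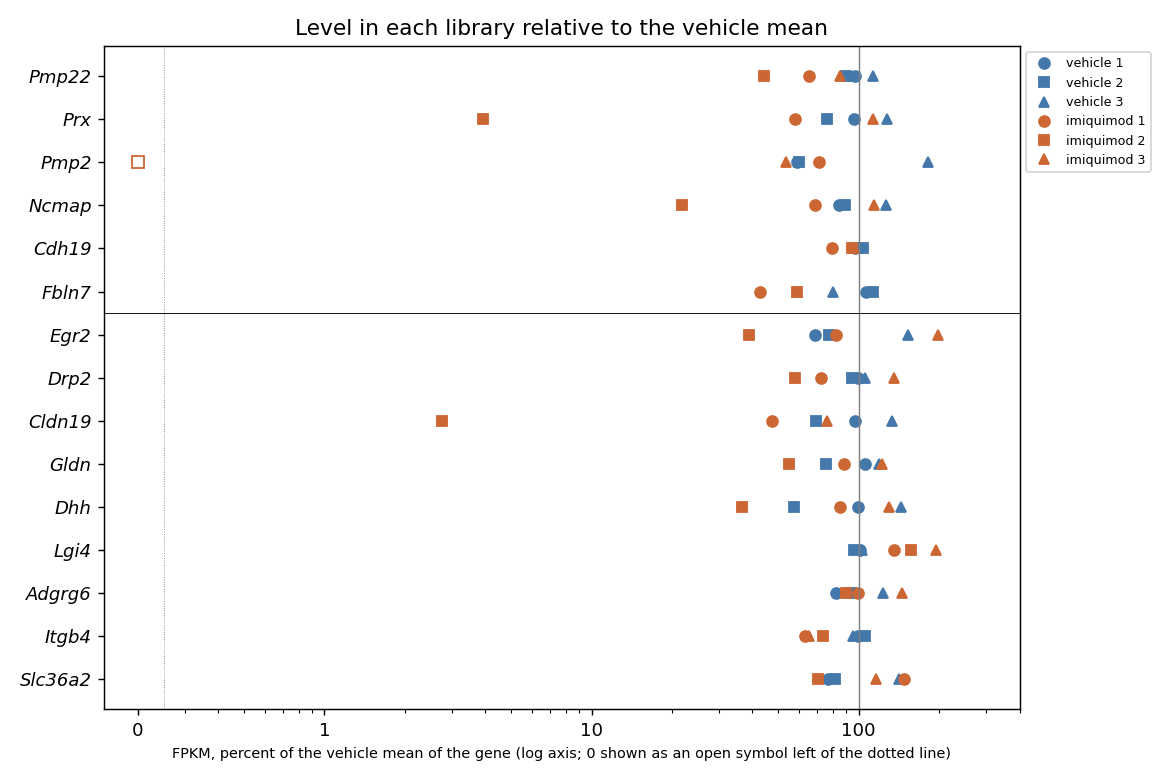
FPKM in each library as a percentage of the gene's vehicle mean (horizontal log axis; a value of 0 is an open symbol left of the dotted line) for the 6 members (above the line) and 9 other genes of myelinating Schwann cells; colours mark the group and symbols the replicate number. Imiquimod replicate 2 lies at 3.91% for Prx but at 94.2% for Cdh19.

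The other genes of myelinating Schwann cells were a list of 9, of which 8 passed the filter. Of these, 1 rose and 1 fell, and the median log2 change was -0.14 with all libraries and 0.17 without imiquimod replicate 2. Their summed level was 28.5, 28.0 and 30.5 FPKM in vehicle replicates 1 to 3 and 23.2, 22.6 and 32.5 FPKM in imiquimod replicates 1 to 3. The sum was lowest in imiquimod replicate 2 and highest in imiquimod replicate 3, so the groups overlapped. Itgb4, Drp2 and Lgi4 made up most of this sum, and of these only Drp2 was lowest in imiquimod replicate 2.

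Cldn19, a claudin of Schwann cell tight junctions, was also lowest in imiquimod replicate 2, where it had 4 fragments against 63 to 169 in the other 5 libraries. It was at 1.47, 1.05 and 2.03 FPKM in vehicle replicates 1 to 3 and at 0.717, 0.042 and 1.15 FPKM in imiquimod replicates 1 to 3. Its log2 change was -1.58 ± 0.77 (limma adjusted p = 0.219), and -0.63 ± 0.32 without imiquimod replicate 2 (limma adjusted p = 0.222).

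Drp2, the partner of periaxin, was lower in imiquimod replicate 2 than in any other library but far from absent. It was at 6.82, 6.50 and 7.24 FPKM in vehicle replicates 1 to 3 and at 4.93, 3.97 and 9.33 FPKM in imiquimod replicates 1 to 3. Its log2 change was -0.27 ± 0.28 (limma adjusted p = 0.569), and -0.01 ± 0.25 without imiquimod replicate 2 (limma adjusted p = 0.979). Without imiquimod replicate 3, it passed at -0.62 (limma adjusted p = 0.0347).

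Egr2, the regulator of peripheral myelination, had overlapping groups, with 0.263 FPKM in imiquimod replicate 2 and 1.34 FPKM in imiquimod replicate 3 as its lowest and highest libraries. Its log2 change was -0.08 ± 0.53. Gldn (gliomedin, which clusters sodium channels at nodes) changed by -0.20 ± 0.31, Adgrg6 (a receptor needed to start myelination) by 0.13 ± 0.24 and Slc36a2 (an amino acid transporter) by 0.13 ± 0.34 on the log2 scale, and none of these passed. Dhh, a ligand of Schwann cells to the nerve sheath, was at 0.142 to 0.558 FPKM and failed the filter.

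Lgi4, a secreted protein of the Schwann cell lineage, rose. It was at 4.65, 4.42 and 4.74 FPKM in vehicle replicates 1 to 3 and at 6.22, 7.20 and 8.92 FPKM in imiquimod replicates 1 to 3. The groups did not overlap. Its log2 change was 0.67 ± 0.13 (limma adjusted p = 0.0195), and 0.68 ± 0.15 without imiquimod replicate 2 (limma adjusted p = 0.0323). Its call ended without any 1 of vehicle replicates 1 to 3 (limma adjusted p = 0.0727, 0.0724 and 0.0633).

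Itgb4, the integrin chain that binds laminin in the basal lamina, fell. It was at 12.6, 13.3 and 12.0 FPKM in vehicle replicates 1 to 3 and at 7.90, 9.28 and 8.24 FPKM in imiquimod replicates 1 to 3. The groups did not overlap, and imiquimod replicate 2 was the highest of its group. Its log2 change was -0.57 ± 0.08 (limma adjusted p = 0.00721), and -0.64 ± 0.07 without imiquimod replicate 2 (limma adjusted p = 0.00493).

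Genes of non-myelinating and repair Schwann cells were low. Of 9, 4 passed the filter and none was called (limma and limma-voom; at an unadjusted p under 0.05, 1 lower and 0 higher). The smallest p was that of Foxd3, a regulator of early glia, with a log2 change of -0.46 ± 0.16 (limma adjusted p = 0.1003). Ngfr, which rises in denervated Schwann cells, was at 0.701 to 1.32 FPKM and Scn7a at 0.760 to 1.42 FPKM, each with overlapping groups. Gdnf and Artn, growth factors of repair cells, stayed at or under 0.409 FPKM.

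Of 10 laminin chains, laminin receptors and members of the dystroglycan complex, through which periaxin and Drp2 act, 2 rose and 1 fell. Itga6, the integrin partner of Itgb4, rose by 0.49 ± 0.11 on the log2 scale (limma adjusted p = 0.0312) and Sgcb, a sarcoglycan, by 0.21 ± 0.06 (limma adjusted p = 0.0468). Dmd, the dystrophin gene, changed by -0.49 ± 0.13 (limma adjusted p = 0.0492). None of these calls was stable to leaving out single libraries. Itga6 was lost without any vehicle library or imiquimod replicate 3 (limma adjusted p = 0.0817 to 0.107), Sgcb without any 1 library (0.0594 to 0.172) and Dmd without any but imiquimod replicate 2 (0.0884 to 0.154).

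Genes that Schwann cells share with oligodendrocytes moved in another order over the libraries. Of 10 shared myelin genes, 4 fell and none rose, with a median log2 change of -0.42, and for none of the 10 was imiquimod replicate 2 the lowest library. Without that library the count was the same. Pllp (plasmolipin) changed by -0.66 ± 0.10 (limma adjusted p = 0.00740), Ugt8a, which makes the myelin lipid galactosylceramide, by -0.87 ± 0.15 (0.0132) and Sox10, the glial regulator, by -0.40 ± 0.08 (0.0199). With each library left out in turn 1 to 4 of the list fell. Pllp was called each time, and Sox10 was lost without replicate 1 or 2 of the vehicle libraries or replicate 3 of the imiquimod libraries (limma adjusted p = 0.0928, 0.0821 and 0.0562), and Ugt8a without vehicle replicate 1 (0.0531). Mbp, myelin basic protein, was at 3265 to 3324 FPKM in vehicle cords and at 2525, 2490 and 1840 FPKM in imiquimod replicates 1 to 3. The change in Mbp missed the threshold (limma adjusted p = 0.0661), and passed it without imiquimod replicate 3 (-0.39, 0.0371). Of 8 oligodendrocyte genes 3 fell and none rose, among them Gpr37 (-0.45 ± 0.10, limma adjusted p = 0.0310), Opalin (-0.63 ± 0.14, 0.0328) and Ermn (-0.45 ± 0.11, 0.0387). None of these 3 calls held without any 1 vehicle library (limma adjusted p = 0.0786 to 0.144), nor did those of Gpr37 and Ermn without imiquimod replicate 1 or 3 (0.056 to 0.0783). Whether oligodendrocytes added to the member genes' levels was not tested.

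Fibroblast genes of the meninges and nerve sheath were lowest in imiquimod replicate 2 for 11 of 11 genes, against 11.8% of all genes tested. The corresponding counts were 3 of the 5 members tested and 5 of 8 other myelinating Schwann cell genes. Such counts were not particular to these lists, with 3 of 5 fibulin relatives of Fbln7 and 3 of 7 pericyte and smooth muscle genes. Among tested genes of non-myelinating and repair Schwann cells the count was 1 of 4. The summed fibroblast level was 54.4, 101 and 67.5 FPKM in vehicle replicates 1 to 3 and 59.7, 16.7 and 145 FPKM in imiquimod replicates 1 to 3. Ogn, a matrix proteoglycan, was at 0.558 FPKM in imiquimod replicate 2 and at 5.76 to 13.8 FPKM elsewhere. None of the 11 passed with or without that library, and with all libraries 0 did at an unadjusted p under 0.05 or with limma-voom. The smallest p values were those of Fmod (-1.31 ± 0.60, limma adjusted p = 0.196), Igf2 (-1.12 ± 0.52, 0.203) and Ogn (-1.30 ± 1.001, 0.423). The part of the fibroblast genes in the members' result was not tested.

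Neurons that send axons through the roots gave another picture. Of 9 cholinergic and motor neuron genes 8 were tested, of which 5 fell and none rose, and imiquimod replicate 2 was the lowest library for none of them. Chat, which makes acetylcholine, was at 5.93 to 6.27 FPKM in vehicle cords and at 3.69, 5.09 and 3.28 FPKM in imiquimod replicates 1 to 3, so imiquimod replicate 2 was the highest of its group. The 3 smallest p values were those of Chodl (-1.15 ± 0.26, limma adjusted p = 0.0312), Prph (-0.88 ± 0.21, 0.0352) and Chat (-0.62 ± 0.15, 0.0422). These 3 calls were lost without any 1 vehicle library or imiquimod replicate 1 (limma adjusted p = 0.0703 to 0.135), and Chat also without imiquimod replicate 3 (0.0956). Without imiquimod replicate 2, 6 of the list fell. Among 8 genes of sensory ganglion neurons, whose cell bodies lie on the dorsal roots, 2 were tested and none was called (limma and limma-voom; at an unadjusted p under 0.05, 1 higher and 0 lower). These were Pou4f1 (0.44 ± 0.16, limma adjusted p = 0.122) and P2rx3 (-0.06 ± 0.23, 0.899). Their defining channel Scn10a was at 0.00561 to 0.065 FPKM and Mrgprd was at 0 in 5 libraries.

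Other cell types that the dissection could hold were checked in the same way. Of 8 endothelial genes 5 rose and none fell, with the smallest p for Pecam1, Cldn5 and Ly6c1 (1.27 ± 0.09, 1.14 ± 0.09 and 1.02 ± 0.16, limma adjusted p = 0.000735, 0.00106 and 0.00863), and 5 to 6 rose with each library left out. Of 7 pericyte and smooth muscle genes tested, Kcnj8 rose (0.65 ± 0.16, limma adjusted p = 0.0418) and Rgs5 fell (-0.93 ± 0.22, 0.0377), with Abcc9 next (-0.35 ± 0.14, 0.142). Kcnj8 was lost without any 1 vehicle library or imiquimod replicate 2 (limma adjusted p = 0.0585 to 0.126) and Rgs5 without any but imiquimod replicate 2 (0.0665 to 0.128). Of 8 astrocyte genes, Aldh1l1 rose (0.76 ± 0.08, limma adjusted p = 0.00217) and Gja1 (-1.10 ± 0.06, 0.000343) and Slc1a2 (-0.70 ± 0.10, 0.00775) fell, and without imiquimod replicate 2 so did Aqp4 (0.00553) and Gjb6 (0.0476). Of 7 skeletal muscle genes 3 were tested and none passed, with Acta1, Mb and Mylpf at adjusted p of 0.505 to 0.809 in limma, and 0 at an unadjusted p under 0.05 or with limma-voom. No melanocyte gene passed the filter.

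**Figure D4:**
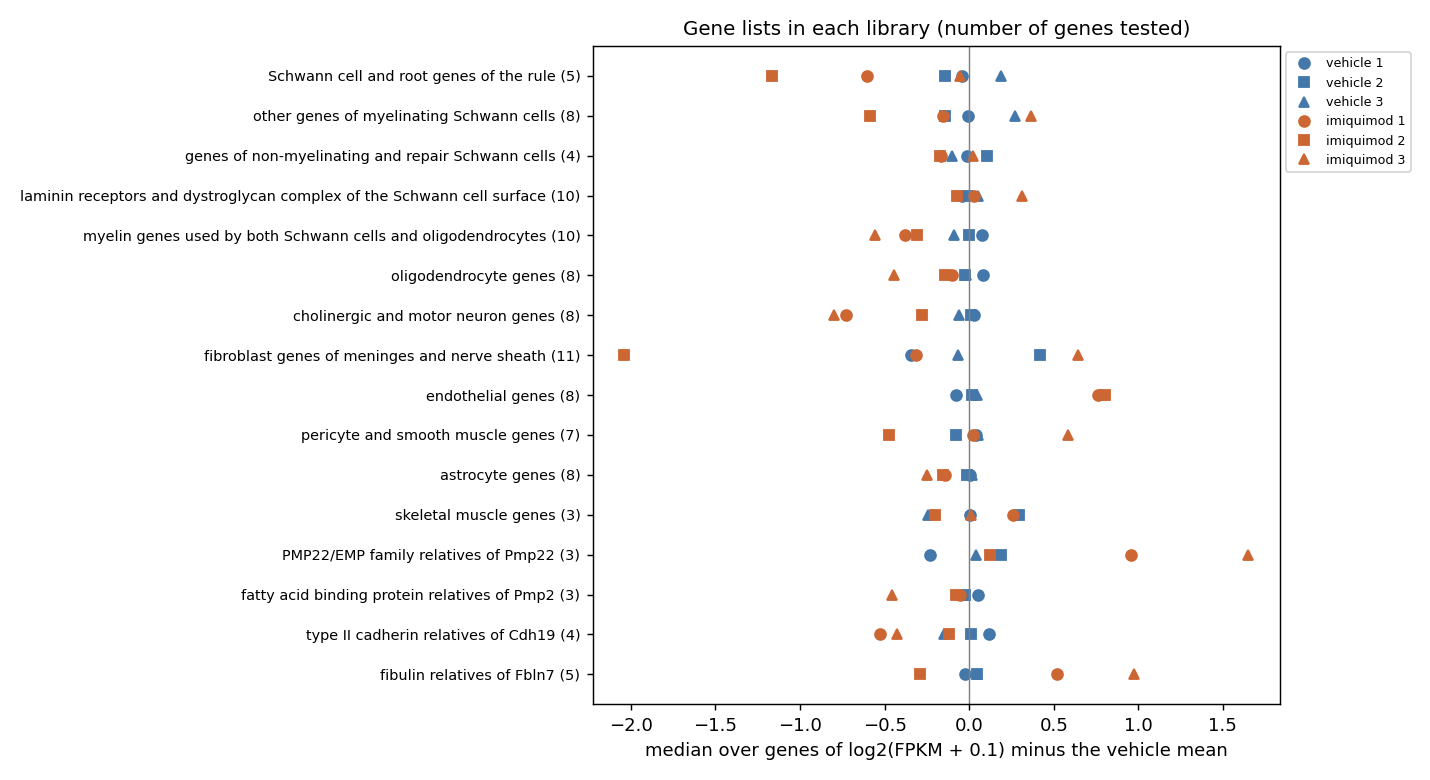
Median over the genes tested in each list of log2(FPKM + 0.1) minus the gene's vehicle mean (horizontal axis), for each of the 6 libraries; numbers in parentheses are genes tested, colours mark the group and symbols the replicate number. In imiquimod replicate 2 the median is -2.04 for fibroblast genes, -1.16 for the members and -0.59 for the other genes of myelinating Schwann cells, but -0.28 for motor neuron genes, the highest of the 3 imiquimod libraries.

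Relatives of the members by sequence family were followed to see whether a family moved as a whole. Among the relatives of Pmp22, Emp1 rose (1.08 ± 0.26, limma adjusted p = 0.0381), Emp2 fell (-0.46 ± 0.12, 0.0454) and Emp3 did not pass (0.94 ± 0.41, 0.180). The call of Emp1 held without imiquimod replicate 2 alone (otherwise 0.0571 to 0.131 in limma), that of Emp2 without imiquimod replicate 3 alone (otherwise 0.0805 to 0.136), and Emp3 passed without imiquimod replicate 2 (1.35, 0.0400). Of the fatty acid binding proteins related to Pmp2, Fabp3, Fabp5 and Fabp7 had log2 changes of 0.01, -0.19 and -0.41 and none passed (1, Fabp7, had an unadjusted p under 0.05, and limma-voom called 0). Fabp7 passed without imiquimod replicate 2 (-0.56, limma adjusted p = 0.0424). Ahnak and Ahnak2, relatives of Prx, had log2 changes of 0.11 ± 0.34 and -0.50 ± 0.18 and did not pass (limma adjusted p = 0.855 and 0.109), though Ahnak2 did without imiquimod replicate 2 (0.0242). Among type II cadherins, Cdh20 fell (-0.55 ± 0.09, limma adjusted p = 0.0110), and Cdh6, Cdh7 and Cdh11 had log2 changes of -0.35, -0.30 and -0.29 that did not pass. Cdh20 was lost without vehicle replicate 1 (limma adjusted p = 0.0522), and Cdh6 passed without imiquimod replicate 2 (-0.48, 0.0443). Among fibulins, Efemp2 rose (0.69 ± 0.15, limma adjusted p = 0.0262), in the direction opposite to Fbln7, and Fbln1, Fbln2, Fbln5 and Efemp1 had log2 changes of 0.62, -0.01, 0.15 and 0.21 that did not pass. The call of Efemp2 held without imiquimod replicate 2 but not without any other library (limma adjusted p = 0.0527 to 0.0931).

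The genes most like the members in pattern were ranked by Pearson r over the 6 libraries, with each group's mean subtracted, against the mean of the scaled members, among 13876 genes with a mean of at least 1 FPKM. The 8 leading genes were Errfi1, Tgfbr3, Tnxb, Adam8, Wls, Aebp1, C3ar1 and Olfml2a, with r from 0.995 to 0.998. This is a description over few libraries that share imiquimod replicate 2 as an extreme point. In all 8, imiquimod replicate 2 was the lowest and imiquimod replicate 3 the highest imiquimod library. Tnxb, a matrix protein, was at 1.162, 1.52 and 1.61 FPKM in vehicle replicates 1 to 3 and at 1.14, 0.560 and 4.17 FPKM in imiquimod replicates 1 to 3. Likeness in this measure did not mean a like difference between groups, since C3ar1, a complement receptor, was at 0.669 to 0.736 FPKM in vehicle cords and 4.03 to 8.75 FPKM in imiquimod cords. Of the members themselves, Pmp22 had an r of 0.94 with this mean, which includes all 6, Ncmap of 0.93, Prx of 0.88, Pmp2 of 0.64, Cdh19 of 0.26 and Fbln7 of -0.0082. The other myelinating Schwann cell genes abundant enough to be ranked did not all follow this mean. Drp2 ranked 64 (r = 0.98), Cldn19 710 (0.87), Lgi4 1660 (0.69) and Itgb4 10941 (-0.55).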

How the data were processed

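Cervical spinal cord RNA from 3 vehicle and 3 imiquimod mice was sequenced, and the authors deposited 1 FPKM value per gene and library. HISAT2 2.0.5, featureCounts 1.5.0-p3, DESeq2 1.16.1 and mm10 are named in the submitters' processing notes. Neither strand setting nor annotation release is given in the sources used here. A names table gave symbols for 54409 of 54532 identifiers, and GENCODE M21 exon lengths for 54495. FPKM times exon length gave whole fragments, within 0.05, for 97.4% to 97.6% of values under 1000 per library. A 2 kb gene with 3 fragments, the floor used here, has 0.0639 to 0.0863 FPKM. No libraries were identical.

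Groups were compared with limma 3.58.1 (R 4.3.3) on log2(FPKM + 0.1), with the variance trended on the mean. This scale understates changes of low genes. Genes whose mean reached 0.5 FPKM in 1 group or both entered, p was adjusted over all of them, and the script was tested on simulated data. Exact permutation of 3 against 3 cannot go below 0.1, so none is given. Tables and figures were made in Python 3.11.15 (matplotlib 3.10.9, SciPy 1.17.1, NumPy 2.4.6, pandas 2.3.3). There were 16 alternatives, in the pseudocount, filter, scaling, length and GC trend, test, pairing and libraries used.

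The members and the 18 other lists (128 genes) were chosen with earlier results of these data known. Of the lists as first written, 2 genes are not reported here and were left out of every count of a list. Named were all members, tested genes of the myelinating Schwann cell and relatives lists, up to 3 genes of smallest p in other lists and the 8 genes most like the members. Others named for their role (Mbp, Ngfr, Scn7a, Gdnf, Artn, Dhh, Scn10a and Mrgprd) or as lowest in 1 library were chosen after their values were seen.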

Additional observations from a re-analysis of the deposited data

How the results depend on the processing

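The log2 changes of Pmp22, Prx, Ncmap, Cdh19 and Fbln7 were negative under all 16 alternatives, and those of Prx, Ncmap and Cdh19 passed in none. Median-of-ratios rescaling, 1 of the 16, is no separate check because the FPKM already followed such size factors. It gave the same 1444 higher and 882 lower calls as the main fit. Fbln7 was past the threshold in 9 of the 16, that rescaling among them, with log2 changes of -0.98 to -0.52 over all 16. It was not with no filter (-0.84), TPM scaling (-0.87) or the replicate block (-0.84, limma adjusted p = 0.0708), and it ran from -0.98 to -0.70 with each library left out in turn. Pmp22 passed with the replicate block (-0.66, limma adjusted p = 0.0468) and without imiquimod replicate 3, within -0.89 to -0.41 over the libraries left out. Members called lower were 1, but 0 with no filter or TPM scaling and 0 to 1 with each library left out. Over all genes, 1444 were called higher, against 894 with the replicate block and 660 to 1690 with a library left out. Called lower were 882, against 508 with no filter, 436 with the replicate block and 187 to 1296 with a library left out. Same-numbered libraries correlated at -0.10 to 0.02 over the genes tested after removing group means, which gave no sign that the numbers pair the samples. Correlations over so many genes cannot exclude a pairing that shows in few of them, and the block is given for completeness. Pmp2 has no value in most alternatives because it failed their filters. With 3 mice a group and 1 library almost without Prx, differences of the size of the SE given could not be detected. Larger ones could also be missed, since Pmp22 at -0.66 ± 0.23 did not pass (limma adjusted p = 0.0986). For Pmp2 its 13 imiquimod and 27 vehicle fragments set the limit.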
